A study of Mus musculus with 6 samples.

Results

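Enterocytes of the same tunicamycin-treated culture differed widely in Ddit3, the transcript that encodes the transcription factor CHOP, and cells with much and with little of it were compared within each library. In the 2 libraries treated for 25 h, Ddit3 was expressed per cell as unique molecular identifiers (UMIs) per 10000 UMIs. Cells with at least 10 were called CHOP-high and cells with fewer than 5 CHOP-low, and a middle class lay between. Of the 883 enterocytes deposited for 25 h, 873 were kept with at most 25% mitochondrial UMIs. CHOP-high cells numbered 111 in replicate 1 and 108 in replicate 2, CHOP-low cells 149 and 144, and middle cells 166 and 195. The 512 high and low cells came from 5122 deposited cells, of which 4368 were enterocytes kept over all libraries. The classes were chosen by the Ddit3 values of these same cells, so Ddit3 was taken out of every fit and its values are given as a description.

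The study followed stress of the endoplasmic reticulum (ER) in differentiated monolayers grown from mouse intestinal organoids and read single cells with 10x Genomics 3' V2 chemistry. It had 3 groups of 2 libraries each, which received DMSO alone, 0.5 µg/ml tunicamycin over 13 h, or that dose over 25 h. The series text calls the libraries of a group biological replicates. Treatment began on differentiation day 3, the 13 h cultures stood in DMSO first, and all were harvested on the morning of day 4. By the strain label, every group carried a Rosa26-floxed STOP-Cas9 allele crossed with cmv-cre on B6, so the DMSO cultures share the Cas9 allele and a Cre driven by the broadly active CMV promoter. Animal age and whether animals were pooled are not given in the labels. The growth protocol speaks of colonic spheroids and the tissue tag of small intestine. Dead cells were removed with a kit before capture.

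Tunicamycin stops the enzyme that starts the glycan chains of secretory proteins, and unfolded glycoproteins then collect in the ER. The unfolded protein response (UPR) has 3 sensors, PERK, IRE1 and ATF6. PERK phosphorylates eIF2α, which lowers protein synthesis overall while favouring translation of ATF4, and ATF4 and CHOP bind composite C/EBP-ATF sites in genes for amino acid supply, feedback on PERK and cell death. ATF6 and the IRE1-spliced factor XBP1 drive chaperones and ER-associated degradation (ERAD), in part through the ER stress response element. Enterocytes are the absorptive cells of the gut lining and make lipoproteins in their ER.

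The 6 libraries held between 9462248 and 19772274 UMIs. Summed UMIs were 1931136 and 2182769 over CHOP-high cells and 2585526 and 2642215 over CHOP-low cells. The median cell held 15985 and 19249.5 UMIs in the high class and 15508 and 17127.5 in the low class. Thinned to 5000 UMIs, the median cell showed 1895.5 and 1859 genes in the high class and 1852 and 1831.5 in the low class. The classes differed in mitochondrial UMIs, with per-cell medians of 8.19% and 8.58% in high cells and 6.40% and 6.57% in low cells. The doublet caller marked 1 high and 1 low cell, both in replicate 1. No barcode was shared between the 25 h libraries, and 1 high or low cell had a barcode that also occurred elsewhere in the series.

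Both classes carried the defining transcripts of intestinal epithelium. Epcam, an epithelial adhesion molecule, stood at 3699 and 3800 CPM (UMI counts scaled to a common library total) in high cells and 3878 and 3554 CPM in low cells. Vil1, which encodes the microvillus protein villin, stood at 380.6 and 400.9 CPM in high cells and 365.1 and 358 CPM in low cells. Alpi, the brush border phosphatase of enterocytes, stood at 81.3 and 110.9 CPM in high cells and 66.9 and 70.8 CPM in low cells. Markers of immune, stromal, tuft, enteroendocrine and stem cells were low, and some were at 0 in all 4 sums. Goblet markers were not low as a list, at 2210 and 2121 CPM in high cells and 3737 and 2876 CPM in low cells. They are taken up below with Tff3. Of 12 immune and stromal markers 7 were at 0, Ptprc, Cd3e and Col1a1 among them, and the list summed to 14.5 and 9.62 CPM in high cells and 15.5 and 11.7 CPM in low cells. Of 11 tuft cell markers 7 were at 0, Dclk1 and Pou2f3 among them, with 3.11 and 1.83 CPM for the list in high cells and 3.09 and 1.51 CPM in low cells. Of 13 enteroendocrine markers 10 were at 0, Chga and Chgb among them, with 32.6 and 62.3 CPM for the list in high cells and 27.1 and 29.9 CPM in low cells. Of 10 stem and progenitor markers 2 were at 0, Lgr5 among them, with 52.8 and 57.7 CPM for the list in high cells and 44.9 and 52.2 CPM in low cells. No tuft marker had enough counts to be tested. None of the tested immune and stromal, enteroendocrine or stem and progenitor markers was called between the classes.

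The Ddit3 level itself was a continuum with no gap at either threshold. CHOP-high cells made up 26.1% of enterocytes in replicate 1 (95% Clopper-Pearson interval 21.9 to 30.5%) and 24.2% in replicate 2 (20.3 to 28.4%), and these intervals cover counting error only. CHOP-low cells made up 35.0% and 32.2%. Just inside the upper threshold, at 10 to 11 per 10000, stood 23 and 23 cells, and just outside it, at 9 to 10, stood 23 and 19. At the lower threshold, 40 and 44 cells held 4 to 5 per 10000 and 30 and 51 cells held 5 to 6. The median Ddit3 was 13.4 and 13.2 per 10000 in high cells and 3.12 and 3.04 in low cells, and the highest cells reached 83.3 and 71.2.

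Ddit3 counts of single cells carry counting error, so the order of the classes was also read in UMIs that did not set them. The UMIs of each cell were split at random into 2 parts of about equal size. The classes were set on the first, which has more counting error than the whole. They held 119 and 115 high cells and 153 and 172 low cells, so they were not exactly the classes compared below. Ddit3 in the other part was 13.0 and 12.9 per 10000 in high cells, 7.53 and 7.40 in middle cells and 4.21 and 4.49 in low cells. The order of the classes was the same in both libraries, which describes Ddit3 only and is no evidence on other genes. In DMSO the same thresholds gave 2 and 10 high cells, or 0.191% and 0.964% of enterocytes, and 98.4% and 97.1% low. At 13 h they gave 50.9% and 48.9% high and 20.99% and 21.76% low. Over all enterocytes the DMSO libraries had a median Ddit3 of 0 and 0.322 per 10000, the 13 h libraries 10.1 and 9.74, and the 25 h libraries 6.80 and 6.72, so the median CHOP-low cell at 25 h had more Ddit3 than the median DMSO cell.

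**Figure D1:**
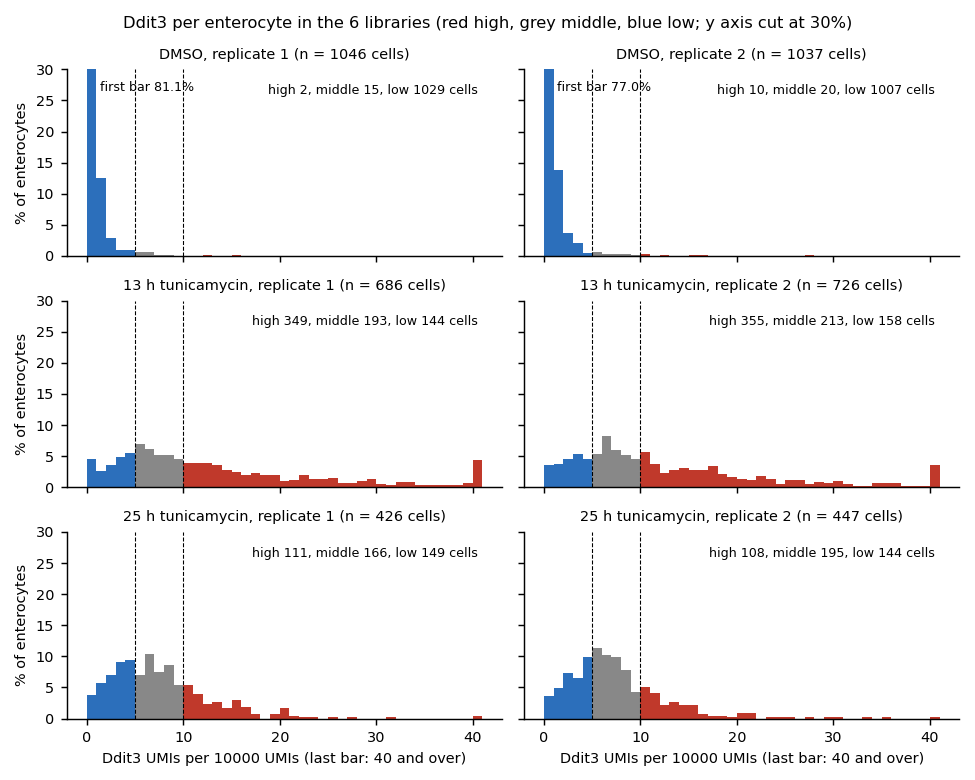
Share of enterocytes (y axis, percent, cut at 30%) by Ddit3 UMIs per 10000 UMIs (x axis, bins of 1, last bar 40 and over) in each of the 6 libraries, DMSO above, 13 h in the middle row and 25 h below, with dashed lines at 5 and 10. The DMSO libraries hold 2 and 10 CHOP-high cells (red), the 13 h libraries 349 and 355, and the 25 h libraries 111 and 108.

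Across 9557 genes tested with Ddit3 removed, 498 (5.21%) were higher and 580 (6.07%) lower in CHOP-high than in CHOP-low cells of the same library, which is 11.3% in all (edgeR quasi-likelihood test, adjusted p under 0.05). The differences were modest in size. The median size among called genes was 0.48 on the log2 scale, and 67 genes (0.701%) were higher and 46 (0.481%) lower by at least 2-fold. For 708 of the 1078 called genes (65.7%) the middle class lay between high and low in both libraries. Over all genes tested it did so for 2020 (21.1%). This is a description only, since a called gap leaves the middle sum more room. Among the 12 highest and 12 lowest genes of sufficient level, the highest held Nupr1, Ccl20, Clca4a, Psca and Il1rn, and the lowest held Tff3, Fgfbp1, Oat, Dhrs7, Slc26a6, Fkbp4, Idi1, Csrp2 and Spink1.

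These tests set sums of cells of the same culture against each other, so their p-values measure how evenly the difference recurred in the libraries of both tunicamycin times. When DESeq2 replaced edgeR, 347 genes were called, and 563 were called without replicate 2 and 623 without replicate 1. With total-count scaling the share of higher among called genes was 61.7%, against 46.2%.

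Many regulators downstream of PERK and ATF4 were higher in CHOP-high cells. Of 21 measured members other than Ddit3, 12 were higher and none lower, and the median log2 difference was 0.42, against -0.002 over all genes. Under DESeq2 and without replicate 1 the count was 7. Nupr1, a small chromatin-associated stress protein, stood at 1018 and 1037 CPM in CHOP-high cells and 457.4 and 415.2 CPM in CHOP-low cells. Its middle class, at 655.9 and 631.7 CPM, fell between (log2 difference 1.24 ± 0.06 SE, adjusted p = 7.8e-22). Its high and low sums did not overlap, which held for 4791 of the genes tested (50.1%). Trib3, a pseudokinase induced by ATF4 and CHOP, stood at 127.5 and 132.6 CPM in high cells, 101.7 and 100.4 in middle cells and 70.1 and 67.7 in low cells (log2 difference 0.92 ± 0.11, adjusted p = 4.49e-09). Ppp1r15a encodes GADD34, which guides the dephosphorylation of eIF2α and so closes the PERK loop, and it is a known CHOP target. It stood at 45.0 and 50.1 CPM in high cells, 29.2 and 37.2 in middle cells and 20.6 and 24.0 in low cells (log2 difference 1.09 ± 0.17).

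Atf4 itself was less graded. It stood at 344.9 and 321.2 CPM in CHOP-high cells, 330.2 and 336.7 in middle cells and 261.2 and 263.3 in low cells, so high and middle cells overlapped and only the low class stood apart. Its high over low difference was 0.34 ± 0.07 on the log2 scale (adjusted p = 0.000382), and without replicate 1 it was 0.28 with an adjusted p of 0.0590. Atf3, a stress-induced repressor and activator of the same family, stood at 35.9 and 45.1 CPM in high cells and 21.4 and 27.2 CPM in low cells (0.74 ± 0.17), with an adjusted p of 0.0762 without replicate 2. Cebpb, a dimer partner of CHOP, stood at 117.8 and 111.2 CPM in high cells and 74.0 and 74.8 CPM in low cells (0.62 ± 0.11). Chac1, a glutathione-degrading enzyme named here outside the rule for named genes, stood at 50.6 and 41.9 CPM in high cells and 27.6 and 25.2 CPM in low cells (0.80 ± 0.16).

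The proximal promoters of 6 genes of this kind are shown because each is higher in CHOP-high cells and holds a C/EBP-ATF or ER stress element within 250 bases upstream of an annotated start. They are the 250 bases before the start in RefSeq on GRCm38.p6, read 5′ to 3′ on the gene's strand. Capitals mark TGATGCAA on the reverse strand (read as TTGCATCA) in the first 4, and the 5 outer letters at each end of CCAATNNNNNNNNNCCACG in the last 2. The stretches are chr7:126625471-126625720 (minus strand) for Nupr1, chr2:119350992-119351241 (plus) for Chac1, chr1:191183334-191183583 (minus) for Atf3, chr8:94386179-94386428 (plus) for Herpud1, chr2:34771840-34772089 (plus) for Hspa5 and chr19:6046326-6046575 (plus) for Syvn1. The element begins 110, 193, 110, 112, 65 and 44 bases before the start in that order. For Nupr1 and Atf3 the start used lies far inside the longer gene span of GENCODE.
Nupr1: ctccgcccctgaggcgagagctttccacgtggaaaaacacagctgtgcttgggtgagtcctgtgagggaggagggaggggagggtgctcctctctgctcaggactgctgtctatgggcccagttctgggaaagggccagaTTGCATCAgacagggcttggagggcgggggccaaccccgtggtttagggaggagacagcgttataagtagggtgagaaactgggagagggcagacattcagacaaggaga
Chac1: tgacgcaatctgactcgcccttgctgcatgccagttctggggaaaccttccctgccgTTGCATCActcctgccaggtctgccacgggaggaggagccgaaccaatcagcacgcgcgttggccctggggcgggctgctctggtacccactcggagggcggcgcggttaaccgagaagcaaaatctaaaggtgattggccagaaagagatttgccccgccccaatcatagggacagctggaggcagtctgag
Atf3: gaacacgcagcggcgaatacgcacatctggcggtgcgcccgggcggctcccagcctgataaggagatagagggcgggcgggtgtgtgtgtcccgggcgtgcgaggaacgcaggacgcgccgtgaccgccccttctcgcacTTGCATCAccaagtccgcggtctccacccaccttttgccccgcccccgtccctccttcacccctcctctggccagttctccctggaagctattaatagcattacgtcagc
Herpud1: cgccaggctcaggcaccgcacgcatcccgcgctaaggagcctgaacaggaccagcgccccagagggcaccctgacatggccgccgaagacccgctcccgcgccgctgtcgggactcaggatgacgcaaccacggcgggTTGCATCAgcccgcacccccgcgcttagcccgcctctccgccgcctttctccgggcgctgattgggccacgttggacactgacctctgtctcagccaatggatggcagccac
Hspa5: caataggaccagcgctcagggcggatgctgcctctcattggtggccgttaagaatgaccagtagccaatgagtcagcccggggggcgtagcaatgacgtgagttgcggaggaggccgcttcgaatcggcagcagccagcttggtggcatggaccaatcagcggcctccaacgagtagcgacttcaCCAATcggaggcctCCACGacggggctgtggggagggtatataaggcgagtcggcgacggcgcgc
Syvn1: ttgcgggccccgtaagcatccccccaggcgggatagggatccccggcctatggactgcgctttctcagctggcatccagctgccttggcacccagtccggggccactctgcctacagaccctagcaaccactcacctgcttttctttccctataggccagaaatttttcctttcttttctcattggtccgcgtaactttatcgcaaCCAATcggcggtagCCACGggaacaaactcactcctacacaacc

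Both motifs were sought on both strands, and neither contains the other. A gene could have more than 1 start, and the 7553 genes tested and matched had 9674 promoters. TGATGCAA occurred in 260 of 32851 promoters of this length (0.792%), and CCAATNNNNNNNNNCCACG in 37 (0.113%). Among genes tested and matched to a promoter, 51 of 7553 held the first motif, among them 8 of 382 higher genes (2.09%) and 3 of 445 lower genes (0.674%). The second was held by 12 of 7553, among them 4 of 382 higher genes (1.05%) and 1 of 445 lower genes (0.225%). A match describes these letters only and was not read as a bound site.

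Some ER chaperone and ERAD genes were also higher in CHOP-high cells. Of 21 chaperone and folding genes 6 were higher and 2 lower (38.1% called, median log2 difference 0.09). Of 20 ERAD genes 4 were higher and none lower (20% called, median 0.11), against 11.3% called over all genes. With classes matched on mitochondrial share, as described below, 4 chaperone genes were higher and 2 lower (median -0.01). In that setting 4 ERAD genes were higher and none lower (median 0.08). Hspa5, which encodes the main ER chaperone BiP, stood at 3627 and 3591 CPM in CHOP-high cells, 2928 and 3333 in middle cells and 2481 and 2659 in low cells. Its 3 classes kept this order in both libraries (log2 difference 0.49 ± 0.05, adjusted p = 7.42e-12), and per cell its median was 29.3 and 32.0 UMIs per 10000 in high cells and 21.4 and 25.0 in low cells. Creld2, a disulfide-handling ER protein, stood at 253.9 and 198.2 CPM in high cells and 136.7 and 156.2 CPM in low cells (0.62 ± 0.09), and the difference was 0.34 without replicate 1. Dnajb9, a BiP cochaperone that also restrains IRE1, stood at 184.6 and 158.1 CPM in high cells and 111.3 and 120.4 CPM in low cells (0.56 ± 0.09). Manf, a secreted BiP partner, stood at 1337 and 1241 CPM in high cells and 1020 and 1077 CPM in low cells (0.30 ± 0.05).

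The members that went down were both protein disulfide isomerases. Pdia3 had a log2 difference of -0.23 and Pdia6 of -0.20, and neither call was stable, since without replicate 1 their adjusted p-values were 0.205 and 0.0505, and without replicate 2 that of Pdia6 was 0.305. The ERAD genes that rose included 3 parts of the HRD1 membrane complex, which takes misfolded proteins out of the ER. Herpud1, which helps organize that complex, stood at 449.6 and 403.7 CPM in CHOP-high cells, 325 and 368.4 in middle cells and 261.6 and 229.8 in low cells (0.79 ± 0.08, adjusted p = 7.15e-11). Syvn1, its ubiquitin ligase HRD1, stood at 105.7 and 101.1 CPM in high cells, 84.9 and 75.7 in middle cells and 61.9 and 53.9 in low cells (0.84 ± 0.11). Sel1l, the ligase's scaffold, stood at 215.5 and 195.9 CPM in high cells and 134.3 and 149.9 CPM in low cells (0.53 ± 0.08). The remaining member called was Selenok (0.22), a membrane selenoprotein, with 0.14 and an adjusted p of 0.339 without replicate 1.

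Xbp1, the factor spliced by IRE1, did not differ detectably in its total transcript. It stood at 252.4 and 270.6 CPM in CHOP-high cells, 245 and 261.8 in middle cells and 262.4 and 258.9 in low cells (log2 difference 0.00 ± 0.07, adjusted p = 0.981). Spliced and unspliced Xbp1 were not told apart in these counts. Dpagt1, whose product is the enzyme that tunicamycin inhibits, stood at 25.8 and 23.2 CPM in high cells and 24.5 and 27.6 CPM in low cells (-0.09 ± 0.19, adjusted p = 0.826). Qrich1, a regulator of the late ER stress response, stood at 49.6 and 40.1 CPM in high cells and 38.5 and 35.0 CPM in low cells (0.28 ± 0.15, adjusted p = 0.261). The values of these 3 genes do not show that the classes were alike, only that no difference passed the test. Of 11 UPR sensors and factors tested as a list, 3 were higher and none lower (27.3% called, median 0.38). They were Atf6, Ern1, which encodes IRE1, and Creb3l3, the last with few counts. Under DESeq2 none of the list was called.

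**Figure D2:**
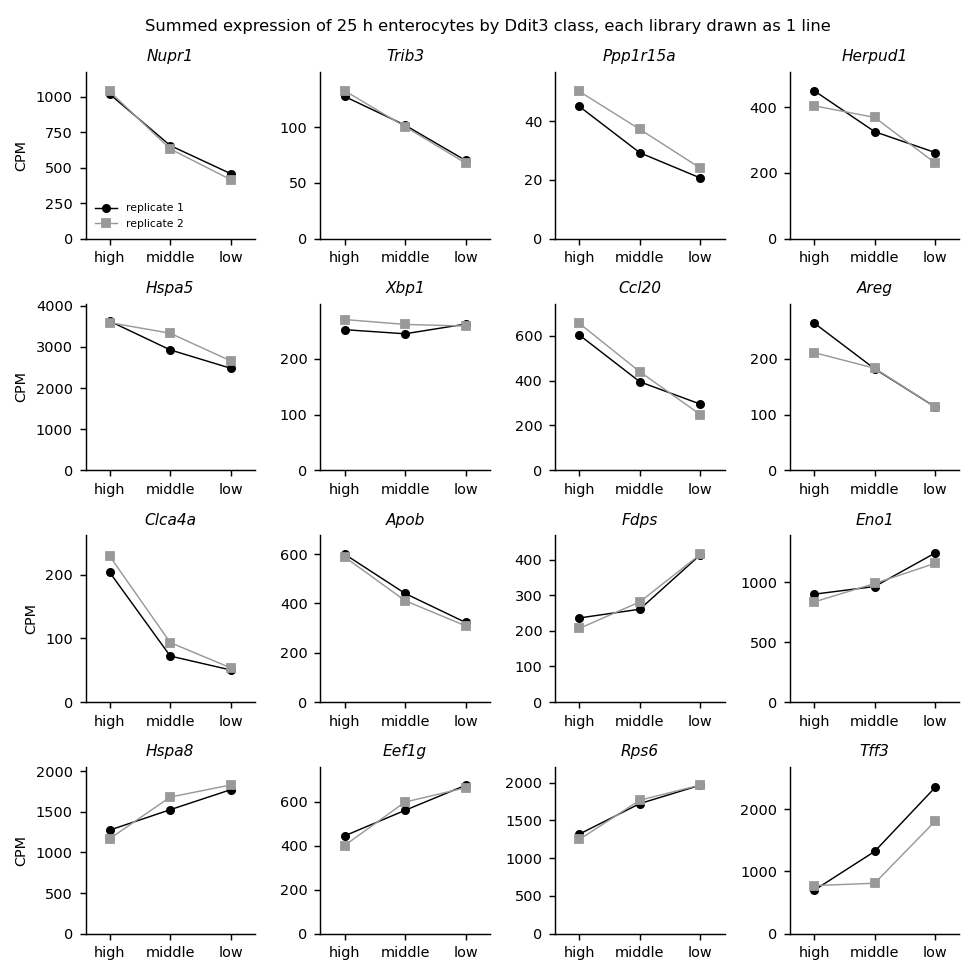
CPM (y axes, linear, from 0) of 16 genes summed over CHOP-high, middle and CHOP-low cells (x axis) of the 25 h libraries, with a line for each replicate and no error bar because each point is 1 sum. Nupr1, Trib3, Herpud1, Hspa5, Ccl20, Areg and Apob step down and Eef1g, Rps6, Hspa8 and Fdps step up from high through middle to low in both libraries, while Xbp1 stays between 245 and 270.6 CPM.

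Genes of amino acid supply, which ATF4 also drives, were not higher in CHOP-high cells at this time. Of 20 amino acid synthesis and transport genes none was higher and 4 were lower (median -0.05), and of 20 cytosolic aminoacyl-tRNA synthetases 2 were higher and none lower (median -0.01), which is 10% called and near the 11.3% of all genes. Asns, the asparagine synthetase and a standard ATF4 target, stood at 119.4 and 96.6 CPM in CHOP-high cells and 139 and 127.1 CPM in CHOP-low cells. That difference of -0.31 ± 0.10 had an adjusted p of 0.0466, and the call was lost in 13 of 17 other settings, with adjusted p-values of 0.0658 without replicate 1 and 0.425 without replicate 2. The other lower members were Cth (-0.77, but -0.48 without replicate 2), Slc1a5 (-0.98) and Phgdh (-1.07). Their adjusted p-values were 0.392, 0.113 and 0.273 without replicate 2, and without replicate 1 those of Slc1a5 and Phgdh were 0.110 and 0.0630. The synthetases that rose were Wars, for tryptophan, at 92.0 and 104.3 CPM in high cells and 55.3 and 62.6 CPM in low cells (0.74 ± 0.12), and Aars, for alanine (0.38 ± 0.10, adjusted p = 0.0867 without replicate 1 and 0.0515 without replicate 2). With total-count scaling in place of trimmed means, which moves the median of all genes by 0.05, the medians of both lists turn slightly positive, to 0.01 and 0.04.

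Some secreted signals to neighbouring cells were higher in CHOP-high cells. A list of EGF receptor ligands and chemokines also held the receptor antagonist Il1rn and the intracellular inhibitors Nfkbia and Tnfaip3, and of its 12 tested members 6 were higher and 2 lower (median 0.22). Ccl20, a chemokine that draws CCR6-bearing lymphocytes and dendritic cells, stood at 602.9 and 654.7 CPM in CHOP-high cells, 394.4 and 438.9 in middle cells and 294.7 and 248.3 in low cells. Its difference was 1.21 ± 0.07 on the log2 scale (adjusted p = 3.85e-19), and its per-cell median was 3.27 and 2.34 UMIs per 10000 in high cells and 1.29 and 0.829 in low cells. Areg, which encodes the EGF receptor ligand amphiregulin, stood at 264.5 and 211.4 CPM in high cells, 182.3 and 183.2 in middle cells and 113.7 and 113.7 in low cells (1.06 ± 0.09, adjusted p = 2.03e-13).

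Btc, the related ligand betacellulin, stood at 20.7 and 24.1 CPM in CHOP-high cells and 7.40 and 9.05 CPM in CHOP-low cells (1.44 ± 0.27). Il1rn, the interleukin 1 receptor antagonist, stood at 64.2 and 51.0 CPM in high cells and 21.02 and 29.91 CPM in low cells (1.17 ± 0.16), and its difference was 0.77 without replicate 1. The remaining higher members were Ereg (0.72), another EGF receptor ligand, and Cxcl16 (0.35), a chemokine. Without replicate 1 these were 0.42 and 0.20, with adjusted p-values of 0.367 and 0.387. The lower ones were Nfkbia, the NF-κB inhibitor (-0.43), and the chemokine Ccl25 (-0.53). Without replicate 1 their adjusted p-values were 0.0700 and 0.717, and Ccl25 stood at -0.17. Btg1, an antiproliferative gene outside that list, stood at 415.2 and 433.3 CPM in high cells and 296.7 and 320.3 CPM in low cells (0.46 ± 0.07).

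Genes of mature surface enterocytes did not move as a single block. Of 17 enterocyte markers 5 were higher and 3 lower (median 0.04), and of 20 brush border genes 4 were higher and none lower (0.09). Without replicate 2 the enterocyte markers had 3 higher and 2 lower and the brush border genes 1 higher and 2 lower, and with classes set on thinned cells no brush border gene was called. Apob, the structural protein of chylomicrons and a large cargo of the ER, stood at 599.8 and 588.6 CPM in CHOP-high cells, 440.4 and 411.1 in middle cells and 322.7 and 308.9 in low cells (log2 difference 0.91 ± 0.06, adjusted p = 8.87e-16). Guca2a, which encodes the secreted peptide guanylin, stood at 2185 and 2010 CPM in high cells, 1767 and 1645 in middle cells and 1454 and 1266 in low cells (0.63 ± 0.05, adjusted p = 3.72e-13). Clca4a, a protein of mature surface cells, stood at 203.3 and 228.7 CPM in high cells, 72.1 and 93.3 in middle cells and 50.2 and 53.5 in low cells (2.06 ± 0.12, adjusted p = 2.6e-19). No single cell carried Clca4a, since the top cell held 11.2% and 13.2% of its UMIs in the high sums.

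Fabp2, the intestinal fatty acid binding protein, stood at 197.2 and 231 CPM in CHOP-high cells and 112.9 and 129.5 CPM in CHOP-low cells (0.83 ± 0.11). Its call was lost when classes were set on thinned cells and when classes were matched on mitochondrial share. Apoa4, a lipoprotein component, stood at 19.7 and 34.6 CPM in high cells and 64.6 and 30.7 CPM in low cells. Its classes overlapped between libraries, and its difference of -0.77 ± 0.20 (adjusted p = 0.00718) became 0.17 without replicate 1 and -1.71 without replicate 2. Krt8, an epithelial keratin, stood at 4069 and 3948 CPM in high cells and 5061 and 4884 CPM in low cells (-0.31 ± 0.04, adjusted p = 2.69e-07). Hsd17b13, a lipid droplet enzyme, stood at 125.9 and 148.5 CPM in high cells and 248 and 256.6 CPM in low cells (-0.88 ± 0.09, adjusted p = 8.84e-11).

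Some of the largest fold changes came from single cells. A replicate 2 cell with 19870 UMIs and 35.2 Ddit3 UMIs per 10000, not called a doublet, was the top cell for Klk6, Ly6d, Psca, Apoa1, Rbp2, Crct1 and Serpinb9b. It held 350 of the 360 Klk6 UMIs of the replicate 2 high sum (97.2%), 136 of 149 for Ly6d (91.3%), 188 of 263 for Psca (71.5%) and 1443 of 2224 for Apoa1 (64.9%). The log2 difference of Klk6, an epithelial protease, was 5.68 with all cells, 1.77 without the top cell of each sum (adjusted p = 0.0959) and 2.04 without replicate 2 (adjusted p = 0.160), so its call was lost in both settings. Apoa1, a lipoprotein component, stood at 137.6 and 1013 CPM in high cells and 98.1 and 95.6 CPM in low cells. Its difference of 2.36 was 0.49 without replicate 2. Without the top cell of each sum it was 1.69 and still called (adjusted p = 9.3e-16). Rbp2, a retinol-binding protein, went the same way, with a difference of 1.24 that was 0.46 without replicate 2. Without the top cells the Rbp2 difference was 0.57 and still called (adjusted p = 1.72e-05).

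Psca, a surface protein of mature epithelia, kept its direction. It stood at 73.3 and 119.8 CPM in CHOP-high cells and 11.3 and 14.9 CPM in CHOP-low cells (2.87 ± 0.17), and its difference was 2.12 without the top cells. Bglap3 was carried by a different cell in each library, with 87 of 92 and 74 of 86 UMIs in the high sums, and its difference of 3.17 was 0.47 without them. In all, 9 of 943 genes eligible for naming had a cell that held over 50% of a sum. Without the top cell of every gene, 1127 genes were called, and 1027 of the 1078 were among them.

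On the lower side stood the protein synthesis machinery. Of 92 cytosolic ribosomal protein genes, 83 were lower and none higher in CHOP-high cells (median log2 difference -0.42, against -0.002 over all genes). They made up 11.99% and 12.69% of UMIs in high cells and 15.02% and 16.62% in low cells. Rps6, the subunit phosphorylated by S6 kinase, stood at 1318 and 1247 CPM in high cells, 1722 and 1767 in middle cells and 1966 and 1968 in low cells (-0.62 ± 0.05, adjusted p = 6.21e-14). Ribosomal protein genes have many near-identical processed copies, so the values of single members are uncertain.

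The mitochondrial share of UMIs also differed between the classes, with the medians given above. With equal numbers of high and low cells in each decile of the mitochondrial share, a setting added after the data were seen that left 94 cells of each class in each library, 59 ribosomal protein genes were lower and none higher (median -0.27). Over all genes that setting called 381, against 1078. Translation factors went with them, with 8 of 25 lower and 1 higher (median -0.12), and with 3 lower and none higher in the matched cells at about the same median (-0.12). Eef1g, an elongation factor subunit, stood at 444.6 and 400.9 CPM in CHOP-high cells, 560.9 and 598.5 in middle cells and 674.7 and 663.5 in low cells (-0.66 ± 0.06, adjusted p = 7.9e-12). Eef1a1, which brings charged tRNA to the ribosome, stood at 3928 and 3833 CPM in high cells and 5130 and 5301 CPM in low cells (-0.43 ± 0.04).

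Of the chaperones of the cytosol, some of the most abundant were lower. Of 12 cytosolic heat shock genes 3 were lower and none higher (median -0.15). Hspa8, the constitutive HSC70, stood at 1274 and 1169 CPM in CHOP-high cells, 1525 and 1680 in middle cells and 1771 and 1829 in low cells (-0.56 ± 0.05, adjusted p = 1.09e-11). Hsp90ab1, the constitutive HSP90, stood at 290.3 and 264.7 CPM in high cells and 420.1 and 447.8 CPM in low cells (-0.65 ± 0.07). Fkbp4, an HSP90 cochaperone outside that list, stood at 42.0 and 34.6 CPM in high cells and 80.6 and 78.7 CPM in low cells (-1.06 ± 0.14). In the proteasome 9 of 31 subunits were lower and none higher (median -0.24), for example Psma4 at 89.0 and 105.2 CPM in high cells and 140.5 and 144 CPM in low cells. With classes matched on mitochondrial share 1 subunit was called lower while the median was -0.20, and without replicate 2, 3 were called.

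Cholesterol synthesis was lower in CHOP-high cells. Of 23 genes 14 were lower and none higher (median -0.62). Fdps, which makes farnesyl diphosphate, stood at 236.2 and 206.8 CPM in CHOP-high cells, 260.8 and 281.4 in middle cells and 413.8 and 415.2 in low cells (-0.91 ± 0.08, adjusted p = 3.85e-13). Here the middle class lay close to the high class. Cyp51, the lanosterol demethylase, stood at 119.4 and 121.6 CPM in high cells and 197.8 and 196 CPM in low cells (-0.71 ± 0.09), and Idi1, the isopentenyl diphosphate isomerase, at 24.3 and 25.5 CPM in high cells and 50.6 and 53.1 CPM in low cells (-1.06 ± 0.19).

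The list median was -0.64 under DESeq2, -0.56 with total-count scaling and -0.67 without the top cell of each gene. It was -0.27 with classes matched on mitochondrial share. The count of the list moved: 10 genes were lower under DESeq2, 7 with cells thinned to 5000 UMIs and 6 with the matched classes. In glycolysis, 11 of 15 genes were lower (median -0.29). Eno1, an enolase, stood at 899.3 and 834.6 CPM in CHOP-high cells and 1243 and 1157 CPM in CHOP-low cells (-0.47 ± 0.05), and Ldha, Pkm and Gapdh were lower by -0.35, -0.41 and -0.34. The 2 higher members were Hk2 (0.47), a hexokinase, and Slc2a1 (0.29), the glucose transporter GLUT1, with adjusted p-values of 0.228 without replicate 2 for Hk2 and 0.545 without replicate 1 for Slc2a1, where its difference was 0.17. With classes matched on mitochondrial share 6 glycolytic genes were lower and the median was -0.24, and without replicate 1, or under DESeq2, 7 were.

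Transcripts for the respiratory chain split by genome. Of 87 nuclear genes of oxidative phosphorylation 30 were lower and none higher (median -0.16), such as Atp5b, a subunit of ATP synthase, at 1168 and 1079 CPM in CHOP-high cells and 1491 and 1499 CPM in CHOP-low cells. Of 13 mitochondrially encoded genes 8 were higher and none lower (median 0.22), such as mt-Co1 at 29350 and 30340 CPM in high cells and 22280 and 22930 CPM in low cells. With classes matched on mitochondrial share 10 nuclear genes were lower. That matching levels the mitochondrially encoded genes by construction, so the absence of calls among them there is no result. Without replicate 2 the counts were 11 lower nuclear and 5 higher mitochondrial genes, and without replicate 1 they were 23 and 5. The mitochondrial share, also a common sign of cell damage, thus moved with the classes, and its part in the other differences was measured only through that matching.

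Tff3, a peptide secreted by goblet cells, had the lowest log2 difference of all genes that met the naming rule. It stood at 698 and 773.6 CPM in CHOP-high cells, 1322 and 811.2 in middle cells and 2350 and 1808 in low cells (-1.47 ± 0.13, adjusted p = 1.81e-12). The median cell showed no such gap, at 0.926 and 1.19 UMIs per 10000 in high cells and 0.929 and 1.14 in low cells. The upper quartile was 1.51 and 2.09 in high cells and 2.57 and 3.00 in low cells. With classes set on thinned cells the difference was -0.42 (adjusted p = 0.215). Tff3 stood at 46660 and 55690 CPM in the goblet cells of the same libraries. Muc2, the main gut mucin, was at 16.6 and 3.21 CPM in high cells and 4.25 and 6.81 CPM in low cells, against 830.7 and 917.3 CPM in goblet cells, and Spdef, a goblet transcription factor, was at 0.518 and 0 CPM in high cells and 0 in both low sums.

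The whole goblet list of 15 genes took 0.221% and 0.212% of UMIs in CHOP-high cells and 0.374% and 0.288% in CHOP-low cells. Without Tff3 the other 14 genes took 0.150% and 0.134% in high cells and 0.140% and 0.114% in low cells, so the lower share of the list in high cells rests on Tff3. Of its 10 tested members (median 0.14) Tff3 alone passed the test. The part of goblet RNA in the Tff3 difference was not tested. Fgfbp1, a carrier of fibroblast growth factors, stood at 23.8 and 27.8 CPM in high cells and 56.5 and 69.7 CPM in low cells (-1.29 ± 0.16), and Spink1, a trypsin inhibitor, at 38.9 and 43.3 CPM in high cells and 67.0 and 89.3 CPM in low cells (-0.93 ± 0.13).

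CHOP is best known as a factor that can lead stressed cells to apoptosis. Of 33 death and survival regulators 3 were higher and none lower (median 0.06), which is 9.09% called and no more than the 11.3% of all genes. The 3 were Cflar, an inhibitor of caspase 8 activation (0.52 ± 0.14), Tnfrsf1a, the TNF receptor (0.39), and Birc2, a ubiquitin ligase that opposes TNF-induced death (0.71). Each lost its call without replicate 2, with adjusted p-values of 0.409, 0.0949 and 0.0810, and Tnfrsf1a and Birc2 also without replicate 1, with 0.229 and 0.324. The shares called of p53 targets, autophagy genes and interferon-stimulated genes were also near the 11.3% of all genes. Of 17 p53 targets 2 were higher (11.8%), Trp53inp1 (0.79 ± 0.16, adjusted p = 0.0731 without replicate 2) and Cdkn1a, which encodes p21 (0.23 ± 0.06, but 0.12 without replicate 1). Of 21 autophagy genes 3 were higher (14.3%), or 1 without replicate 1, among them the cargo receptor Sqstm1 at 182.6 and 190 CPM in high cells and 128.1 and 128.3 CPM in low cells (0.54 ± 0.09, adjusted p = 6.01e-06).

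Mt1, a metallothionein, stood at 222 and 244.2 CPM in CHOP-high cells and 180.6 and 223.1 CPM in CHOP-low cells, a difference within the spread between libraries (0.21 ± 0.10, adjusted p = 0.175). Irf7, a factor of the interferon response, stood at 168.4 and 151.7 CPM in high cells and 118.4 and 97.6 CPM in low cells (0.57 ± 0.09), and 2 of 15 interferon-stimulated genes were higher (13.3%), or 1 without replicate 1. Neat1, a nuclear long noncoding RNA, stood at 1776 and 1822 CPM in high cells and 1439 and 1340 CPM in low cells (0.37 ± 0.05), with its call lost when classes were matched on mitochondrial share.

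**Figure D3:**
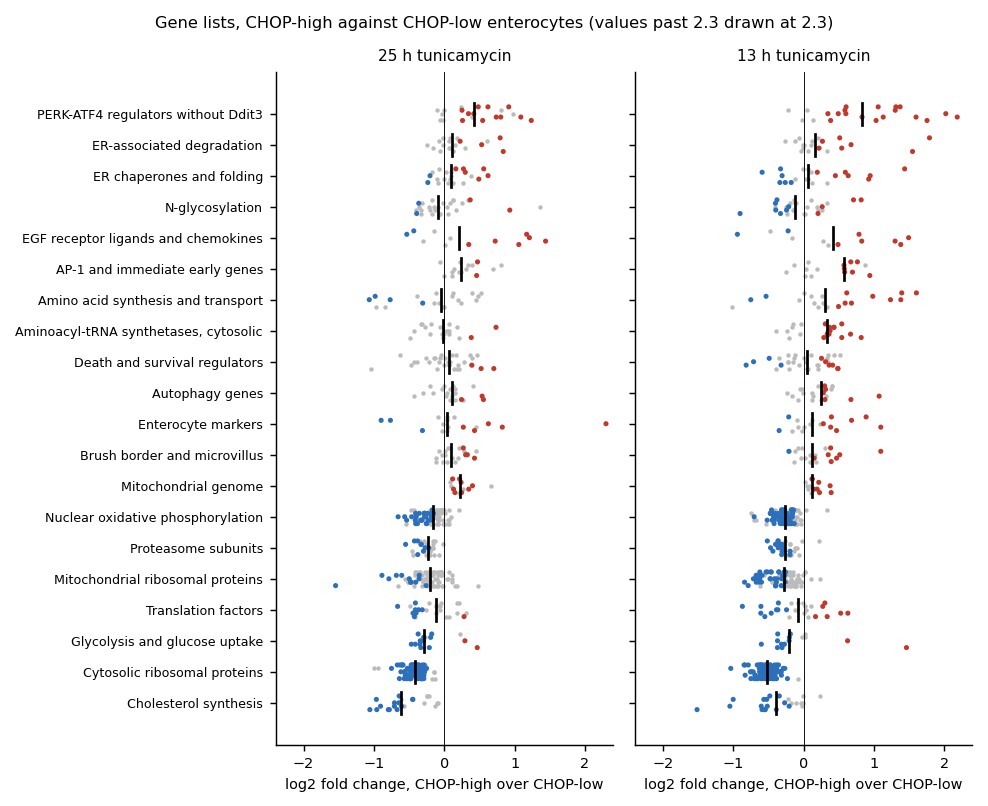
Log2 fold change of CHOP-high over CHOP-low enterocytes (x axes) for every tested member of 20 gene lists (y axis) at 25 h (left) and 13 h (right), with called members in red (higher) or blue (lower), others in grey and list medians as black bars; values past 2.3 are drawn at 2.3. At 25 h the medians run between 0.42 for PERK-ATF4 regulators and -0.62 for cholesterol synthesis.

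The same classes were set in the 13 h libraries, which share no cells with those at 25 h. There, 349 and 355 high cells were set against 144 and 158 low cells, and 1158 genes (12.1%) were higher and 1182 (12.4%) lower. Of the 1078 genes called at 25 h, 1036 had the same sign at 13 h and 779 were called there in the same direction, which is 72.3% of the 25 h calls and 33.3% of the 13 h calls. The 3 genes called in opposite directions were Lgr4, Sprr1a and Apoa4. The 13 h high class reached higher Ddit3, with medians of 18.2 and 17.5 per 10000, while the low class had 2.95 and 2.79. The classes therefore span a wider range of Ddit3 at 13 h and hold more cells, which bears on any comparison of their size.

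The direct test of the difference between times called 92 genes (0.963%), 39 in the positive (0.408%) and 53 in the negative direction (0.555%). On the negative side stood 3 of 21 PERK-ATF4 regulators, 2 of 20 ERAD genes and 4 of 21 ER chaperone genes, each with a larger step up with Ddit3 at 13 h, and 1 chaperone gene stood on the positive side. Herpud1 stood at 733.5 and 832.9 CPM in high cells and 240.1 and 213 CPM in low cells at 13 h, so that its log2 difference was 0.79 at 25 h and 1.79 at 13 h (adjusted p of the difference 4.51e-08). Hspa5 stood at 6082 and 6421 CPM in high cells and 3252 and 3331 CPM in low cells at 13 h, and its difference was 0.49 at 25 h and 0.93 at 13 h (1.44e-05). Nupr1 differed by 1.24 at 25 h and 1.75 at 13 h (9.1e-05), Atf3 by 0.74 and 2.18 (8.26e-05), Dnajb9 by 0.56 and 1.44 (8.15e-06) and Syvn1 by 0.84 and 1.55 (0.00331). For Trib3, with 0.92 at 25 h and 1.31 at 13 h, and Ppp1r15a, with 1.09 and 1.60, the difference between times did not pass the test (0.265 and 0.434).

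At 13 h 9 of 20 amino acid genes were higher and 2 lower (median 0.30), and 12 of 20 tRNA synthetases were higher and none lower (0.33). Over all genes tested, 12.1% were higher and 12.4% lower at 13 h, against 5.21% and 6.07% at 25 h. List counts at the 2 times therefore stand against different shares. The test of the difference between times called 2 of the amino acid genes, both negative, and none of the synthetases. Slc3a2, the heavy chain of amino acid transporters, differed by -0.02 at 25 h and 0.50 at 13 h (adjusted p of the difference 9.27e-05), and Mthfd2, of mitochondrial folate metabolism, by -0.08 and 0.59 (0.00393). Both were named outside the rule. The PERK-ATF4 list had 17 of 21 higher and none lower at 13 h (median 0.83).

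Enterocyte markers stood on both sides, with 3 of 17 positive and 3 negative (median -0.04), and no brush border gene was called. Clca4a differed by 2.06 at 25 h and 1.36 at 13 h (adjusted p of the difference 0.00587), Guca2a by 0.63 and 0.28 (0.0055), and Fabp2 by 0.83 and -0.00 (0.000445). On the negative side Apoa4 differed by -0.77 at 25 h and 0.68 at 13 h (0.000229). Tff3 had no gap at 13 h, at 1178 and 1307 CPM in high cells and 1798 and 812.6 CPM in low cells, where the classes overlapped (-0.01, adjusted p = 0.970). The lower groups recurred: 88 of 92 ribosomal protein genes (median -0.52), 15 of 23 cholesterol genes (-0.39), 10 of 15 glycolytic genes (-0.21) and 17 of 31 proteasome subunits (-0.27) were lower at 13 h. At that time 12.4% of all genes tested were lower. None of the 92 ribosomal protein genes passed the test of the difference between times. The high class at 13 h also had the higher mitochondrial share, with medians of 9.40% and 9.44% in high cells and 7.57% and 7.78% in low cells.

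**Figure D4:**
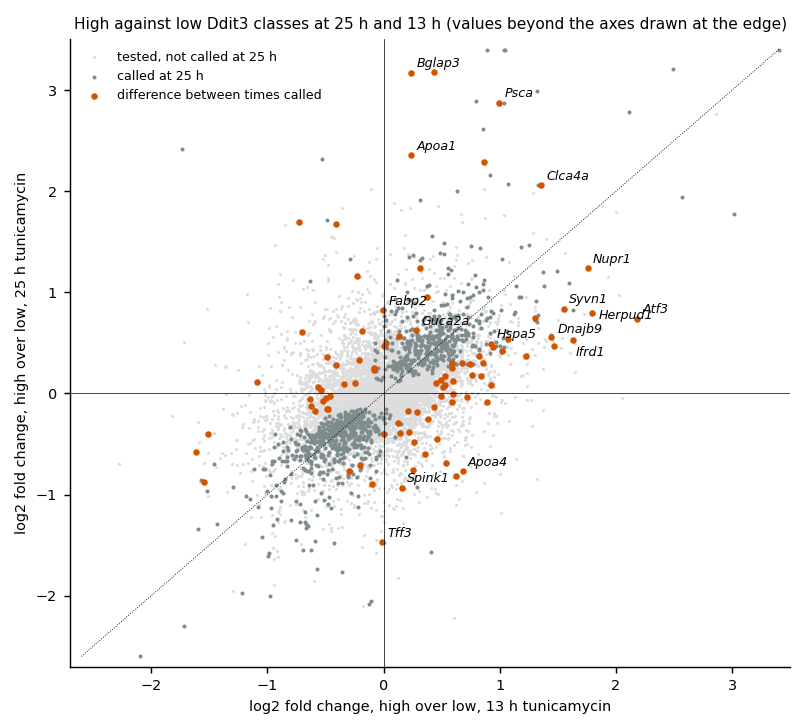
Log2 fold change of high over low Ddit3 class at 25 h (y axis) against 13 h (x axis) for the 9557 genes tested, with genes called at 25 h in dark grey and the 92 genes whose difference between times was called in orange; the dotted line marks equal values and values beyond the axes are drawn at the edge. Herpud1, Atf3, Nupr1 and Hspa5 lie below the line and Psca, Clca4a and Fabp2 above it.

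Each class was also set against all DMSO enterocytes, to see how far cells with little Ddit3 differed from untreated ones. Both comparisons share the DMSO sums, so their values stand side by side only. CHOP-high cells had 1809 genes higher (16.1%) and 1774 lower (15.8%) than DMSO among 11207 tested, and CHOP-low cells had 2098 higher (18.9%) and 2235 lower (20.2%) among 11078. With total-count scaling the share of higher among called genes was 60.9% in the high class, against 50.5%. Cells with little Ddit3 thus differed from untreated cells in many genes. The low sums held more cells and UMIs than the high sums, which bears on any comparison of their counts of called genes. Hspa5 stood at 3609 and 3565 CPM in CHOP-high cells and 159.9 and 216 CPM in DMSO cells (log2 difference 4.25 ± 0.10), and at 2427 and 2590 CPM in CHOP-low cells and 159.6 and 215.1 CPM in DMSO cells (3.74 ± 0.11). Of 22 ER chaperone genes 21 were higher than in DMSO in the high class and 21 in the low class, with medians of 1.94 and 1.91.

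Nupr1 was higher than in DMSO by 3.78 in CHOP-high cells and 2.53 in CHOP-low cells, Trib3 by 3.47 and 2.53, and Xbp1 by 1.88 and 1.85. Asns was higher by 2.05 in high cells and 2.33 in low cells. Of 21 PERK-ATF4 regulators 17 were higher and 1 lower in the high class (median 2.08), and 14 were higher and 2 lower in the low class (1.37). Ccl20 was higher by 2.05 in high cells and 0.82 in low cells. Ppp1r15a was higher by 1.26 in high cells, while its value of 0.15 in low cells did not pass the test (adjusted p = 0.450).

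Ribosomal protein genes were mostly above DMSO in both classes, with 65 of 94 higher and 4 lower in CHOP-high cells (median 0.51) and 76 higher and none lower in CHOP-low cells (0.87). Rps6 stood at 1312 and 1238 CPM in high cells and 650.3 and 679.2 CPM in DMSO cells, and at 1923 and 1917 CPM in low cells against 649.1 and 676.2 CPM. Enterocyte markers were mostly below DMSO in both classes, with none of 17 higher and 14 lower in high cells (median -0.57) and 1 higher and 16 lower in low cells (-0.94). Apob differed by -0.29 in high cells and -1.23 in low cells. The Guca2a value of -0.10 in high cells did not pass the test (adjusted p = 0.167), and in low cells it differed by -0.75. Clca4a lay on opposite sides of DMSO, at 0.94 in high cells and -1.14 in low cells.

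Cholesterol genes were below DMSO in both classes, with 22 of 23 lower than DMSO in CHOP-high cells and none higher (median -1.11), and 17 lower and 1 higher in CHOP-low cells (-0.63). Fdps stood at 235.1 and 205.3 CPM in high cells and 338.3 and 388.5 CPM in DMSO cells (-0.73 ± 0.08), and at 404.9 and 404.4 CPM in low cells against 337.7 and 386.8 CPM (0.16 ± 0.06, adjusted p = 0.0658). Hspa8 was higher than in DMSO by 0.17 in high cells and 0.70 in low cells. The Hsp90ab1 value of 0.00 in high cells did not pass the test (adjusted p = 0.995), and in low cells it was higher by 0.63. Mt1 was far below DMSO in both, at 221 and 242.4 CPM in high cells and 176.7 and 217.3 CPM in low cells, against 1805 and 1845 CPM in DMSO cells in the fit of the high class. The median mitochondrial share of DMSO cells in the low Ddit3 class, which holds nearly all of them, was 8.90% and 8.83%, above that of the 25 h CHOP-low cells and near that of the CHOP-high cells.

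**Figure D5:**
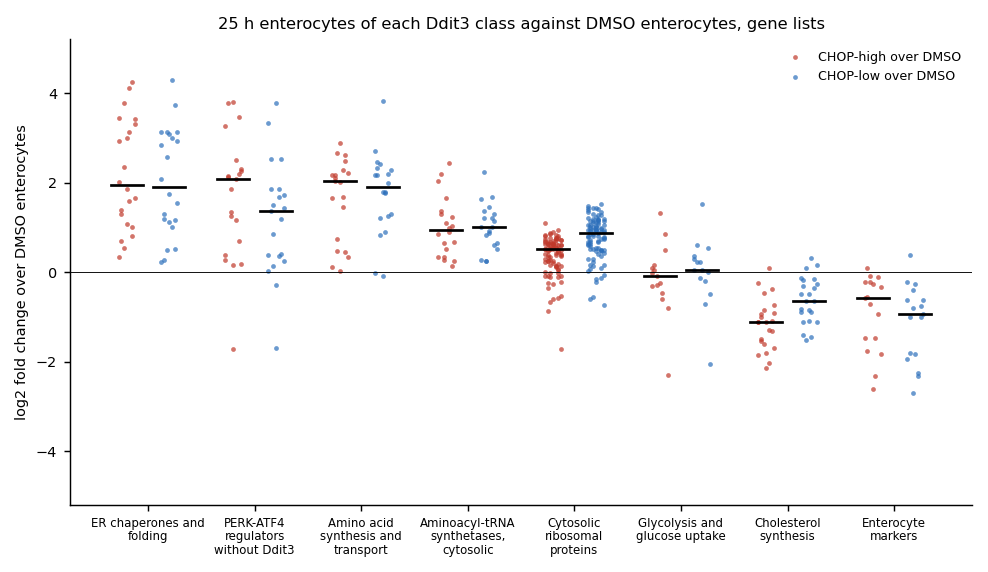
Log2 fold change over all DMSO enterocytes (y axis) of every tested member of 8 gene lists (x axis) for CHOP-high (red, left) and CHOP-low (blue, right) enterocytes at 25 h, with list medians as black bars. Chaperone medians are 1.94 and 1.91, PERK-ATF4 medians 2.08 and 1.37, ribosomal protein medians 0.51 and 0.87 and cholesterol synthesis medians -1.11 and -0.63 in the high and the low class.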

How the data were processed

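The authors deposited raw UMI counts, whole numbers per gene and cell, in 1 matrix of 27998 genes. Cell Ranger and mm10 were used, per the submitters' processing notes. Its version, the cell filter and the way classes were assigned were not given in the sources used here. Cell names give library, barcode and class, and symbols came from GENCODE vM21, which matched 27645 identifiers.

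Cells with over 25% mitochondrial UMIs were removed, 96 in all. Scrublet in scanpy 1.11.5 marked 31 of the deposited cells (0.605%) as doublets, and these were kept except in an alternative. Counts were summed per library and Ddit3 class, and Ddit3 was dropped. The high, middle and low sums of both tunicamycin times entered 1 fit with library as block, since high and low cells come from the same library. The comparisons with DMSO used the sums of the named 25 h class, all 13 h enterocytes and all DMSO enterocytes, fitted by group. Low genes were dropped by filterByExpr, and sums were scaled by trimmed means and tested with the quasi-likelihood test of edgeR 4.0.16 (limma 3.58.1, R 4.3.3), with Benjamini-Hochberg adjustment over all genes tested and a threshold of 0.05. Errors after ± are standard errors of the fit. CPM of named genes are scaled by trimmed means, and those of cell type markers by total UMIs. DESeq2 1.42.0, total-count scaling, no filter on low counts, other class thresholds, thinned or matched cells and left-out libraries were alternatives. The code was tested on simulated counts.

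Genes named are the 12 highest and 12 lowest log2 differences past the threshold with at least 20 CPM and the same direction in both libraries, up to 4 members per gene list, and a short fixed set. Chac1, Ifrd1, Mthfd2, Slc3a2 and some list members named as exceptions were chosen after their values were seen, and the text leaves out part of the genes so selected. The thresholds, lists and rule were chosen with earlier results of these data known, so no list is independent support. Promoters came from RefSeq tables of GRCm38.p6 and covered 7553 of the genes tested. The 2 libraries per group and the number of cells summed limit precision.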

Additional observations from a re-analysis of the deposited data

Results flagged for a closer look

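A direct test of whether the gap between CHOP-high and CHOP-low enterocytes differed between 25 h and 13 h called 92 genes. Values below are the 25 h log2 difference minus the 13 h one, so a negative value means a larger step up with Ddit3, or a smaller step down, at 13 h. Among UPR genes it was -0.52 for Nupr1, -1.45 for Atf3, -0.43 for Hspa5, -0.88 for Dnajb9, -0.29 for Manf, -1.0 for Herpud1 and -0.71 for Syvn1. For metabolic genes tied to ATF4 it was -0.67 for Mthfd2 and -0.52 for Slc3a2. For other regulators it was -0.48 for Btg1, -1.10 for Ifrd1, -0.53 for Sqstm1 and 0.32 for Cdkn1a. In glycolysis and sterol synthesis it was -0.99 for Hk2 and -0.50 for Cyp51.

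Among genes of mature and secretory epithelium it was 0.70 for Clca4a, 0.35 for Guca2a, 0.83 for Fabp2, -1.45 for Apoa4, 0.67 for Hsd17b13, -1.46 for Tff3, -1.09 for Spink1 and -0.36 for Fcgbp. The values for Psca (1.88), Apoa1 (2.12), Rbp2 (0.92), Bglap3 (2.94) and Crct1 (1.43) rest in part on single cells of the 25 h high sums. The high class spans a wider range of Ddit3 at 13 h than at 25 h, and the part of that range in these differences was not tested.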

How the results depend on the processing

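The count of called genes between CHOP-high and CHOP-low cells at 25 h, 1078, was 347 with DESeq2, 418 with cells thinned to 5000 UMIs, 684 with thresholds of 15 and 2.5, 700 with classes set on thinned cells, 381 with classes matched on mitochondrial share (added after seeing the data), and 563 to 1019 with a library left out, 563 of them without 25 h replicate 2 and 623 without 25 h replicate 1. A left-out library leaves a single pair at that time, which is assumed to vary like the other sums. At 13 h 2340 became 644 with DESeq2, 984 thinned, 1231 matched, and 911 to 2509 with a library left out. For the difference between times 92 became 22 with DESeq2, 146 with no filter on low counts, 36 thinned, 26 matched, and 36 to 73 with a library left out. The counts against DMSO fell to 1748 thinned for CHOP-high cells, against 3583, and to 2351 for CHOP-low cells, against 4333, and with a library left out they ran between 2627 and 3493 and between 3246 and 4102.

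With total-count scaling the share of higher genes at 25 h was 61.7% of 1146, against 46.2%, and for CHOP-high cells over DMSO 60.9%, against 50.5%. Without the library as a replicate block 791 genes were called at 25 h, 1977 at 13 h and 16 for the difference between times. Replicate numbers are not known to pair libraries across groups. The difference of replicates 1 and 2 had r between -0.02 and -0.01 across groups. Classes of the same library gave r of only 0.01 to 0.08, so this check could not decide on pairing. With replicate number as a block, 3323 genes were called for CHOP-high and 4122 for CHOP-low cells over DMSO.

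Of 81 called genes named with values, 41 kept their call and direction in all 17 alternatives and 40 lost the call at least once. The direction reversed for Apoa4 without 25 h replicate 1 (0.17, against -1.71 without 25 h replicate 2) and for Bglap3 with thresholds of 15 and 2.5 (-0.12). Fewer cells or UMIs per sum limit what can be called. Matching on total UMIs left 102 and 97 cells of each class at 25 h and called 888 genes. Matching on mitochondrial share left 94 and 94 and called 381. The causes of the changes in these counts were not tested.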
